A study of Mus musculus with 8 samples.

Results

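Defence genes that the intestinal epithelium switches on in response to microbes were examined in mouse small intestinal crypts, the epithelial pits that hold the stem cells and Paneth cells. The 10 genes, of 21883 protein-coding genes in the RefSeq table, were taken as a named group for their known response to microbes: Reg3a, Reg3b and Reg3g, Retnlb, Saa1 and Saa2, Nos2, Duox2 and Duoxa2, and Pigr. Each was followed through its gene body and 50 kb on each side, and in 6 separate loci, since Reg3a, Reg3b and Reg3g share flanks, as do Duox2 with Duoxa2 and Saa1 with Saa2.

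Acetylation of histone H3 at lysine 27 (H3K27ac) and at lysine 9 (H3K9ac), marks of active enhancers and promoters, was mapped by CUT&Tag, in which an antibody brings a transposase to the mark and the cut fragments are sequenced. All mice were C57BL/6J males aged 9 weeks, with no genetic alteration named in the labels. The 4 groups of each mark were Fed -Tetra and Fast -Tetra, fed mice and mice fasted for 24 h without tetracycline, and Fed +Tetra and Fast +Tetra, the same feeding states after 21 days of tetracycline, an antibiotic. The study's title names the microbiome, metabolites and chromatin as the axis through which fasting acts on regeneration. Each group of a mark was 1 sample with 2 peak lists, called list 1 and list 2 here, which makes 16 lists from 8 samples. The labels do not say whether lists 1 and 2 came from different mice, so p-values measure only the spread between lists and are too small if the lists repeat 1 preparation.

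Several of these genes are textbook cases of epithelial sensing of bacteria. Reg3b and Reg3g are secreted lectins that bind bacterial surfaces and keep bacteria off the epithelium, and their messenger RNA is known to be low in germ-free and antibiotic-treated mice. Toll-like receptor signalling through MyD88 and the cytokine IL-22, which acts through STAT3, are the known inducers of most of the group. Whether the histone marks at these loci differ with an antibiotic and with feeding is the question that the lists can address.

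H3K27ac lists held 32392 to 68545 peaks that covered 33.1 to 64.2 Mb, and H3K9ac lists held 17249 to 99050 peaks that covered 16.5 to 47.3 Mb. The depth behind them is unknown. Peaks of exactly 200 bp made up 11.8% of the H3K27ac Fast -Tetra list 1 and 17.2%, 20.3% and 31.2% of the H3K9ac lists Fast -Tetra 1, Fast +Tetra 1 and Fast +Tetra 2. All 10 epithelial marker genes had an H3K27ac peak at a gene end in every list, whereas 1 or 2 of 12 genes of other tissues did. A gene was called marked where a peak lay within 1 kb of either gene end. Covered length is the number of base pairs under peaks in the gene body and its flanks. Because crypts hold several cell types, fewer marked cells and less mark per cell cannot be told apart.

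Tetracycline was compared first. On average fewer of the 10 genes were marked in +Tetra lists for both marks. For H3K27ac the 4 -Tetra lists marked 5, 5, 3 and 6 of them and the 4 +Tetra lists 3, 4, 2 and 5, a mean of 4.75 against 3.5. For H3K9ac the -Tetra lists marked 2, 4, 4 and 7 and the +Tetra lists 1, 2, 3 and 3, a mean of 4.25 against 2.25. The ranges of the 2 states overlapped in both marks. In the same order of lists, H3K27ac marked 44.6%, 49.9%, 49.2% and 50.7% of all genes in -Tetra and 44%, 49%, 50.7% and 42.9% in +Tetra lists. H3K9ac marked 41.1%, 51.7%, 50.3% and 43.3% of all genes in -Tetra and 43.1%, 49.5%, 53.2% and 43.1% in +Tetra lists.

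**Figure D1:**
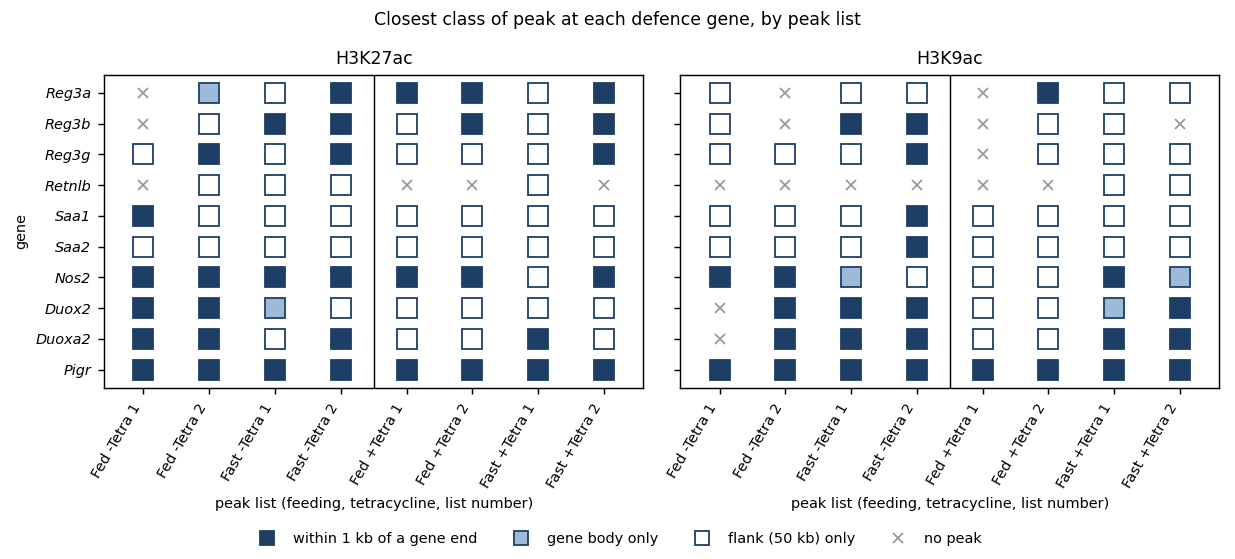
Closest class of peak at each of the 10 genes (rows) in each of the 8 lists of a mark (columns), with H3K27ac on the left, H3K9ac on the right and a line between -Tetra and +Tetra lists. Pigr is marked at a gene end in every column of both panels, Retnlb in none, and Duox2 and Duoxa2 are marked in more -Tetra than +Tetra columns of both panels.

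Covered length was tested by an exact two-sided permutation of the list labels within each feeding state, over all 21883 genes. With 36 arrangements the smallest possible p is 0.0556, so no gene can pass 0.05 and none has an unadjusted p under it. A gene at the smallest p is called separated here: within both feeding states, all lists of 1 tetracycline state lay above all of the other. For H3K27ac, 2.92% of all genes were separated with more in -Tetra lists and 0.302% with more in +Tetra lists, and 0 of the 10 defence genes were in either set. For H3K9ac, 0.32% of all genes were separated with more in -Tetra lists, among them 1 of the 10, Saa1, and 0.781% with more in +Tetra lists, among them 0 of the 10. The smallest adjusted p over all genes was 1 in both marks.

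Averaged over both feeding states, most of the 10 genes had less covered length in +Tetra lists, which for H3K27ac was also true of most genes. For H3K27ac 8 of the 10 genes had a lower mean covered length in +Tetra lists, with a median difference of -736 bp. This count is near the 66.7% of all genes that were lower, and the median over all genes was -232 bp. For H3K9ac 9 of the 10 genes were lower, with a median of -375 bp, beside 40.8% of all genes and a median of +96.25 bp. In fasted mice alone, H3K9ac was higher in +Tetra lists for Reg3g, Retnlb, Nos2, Duox2, Duoxa2 and Pigr, by 249.5 to 1175 bp. There it was lower for Reg3a, Reg3b, Saa1 and Saa2, with differences of -2093 to -191.5 bp. Some of the 9 were small beside the SD between lists, such as Reg3a (-24 bp, SD 561 bp) and Duoxa2 (-43 bp, SD 1925 bp). The genes within a locus share peaks and are not separate counts.

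**Figure D2:**
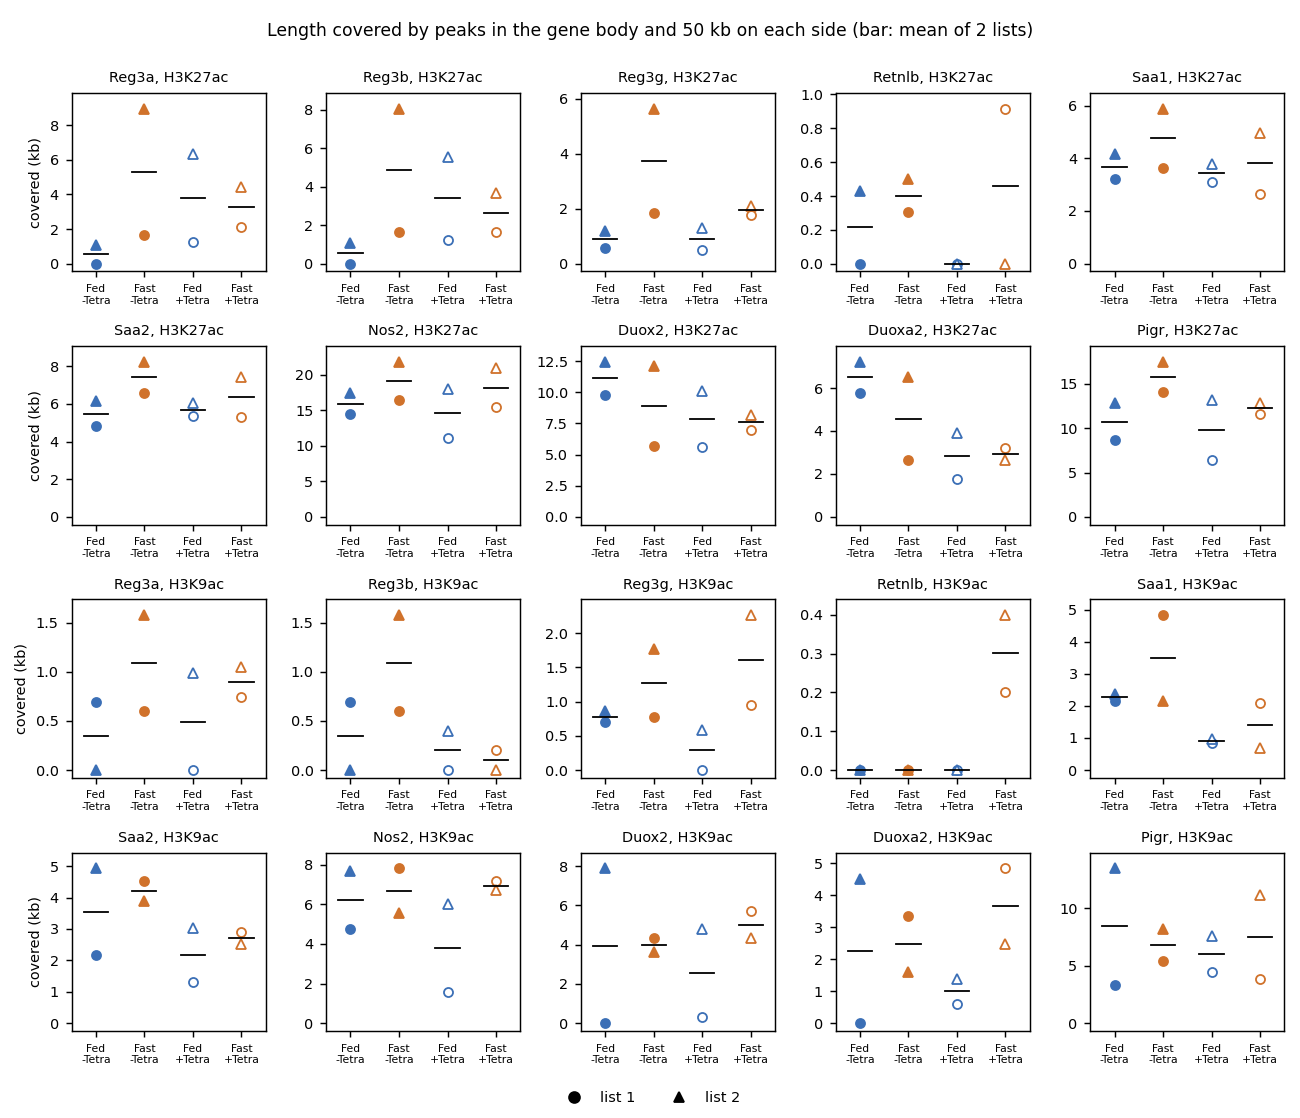
Length covered by peaks (kb, linear axes that differ between panels) in the gene body and 50 kb on each side, for each gene and mark, in the 4 groups; circles are list 1, triangles list 2 and bars the mean of the 2 lists. Reg3g H3K27ac is higher in Fast than in Fed lists on both sides, Saa1 H3K9ac is lower in +Tetra lists, and in most other panels the groups overlap.

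The Reg3 genes lie in 1 cluster on chromosome 6, with Reg3b at chr6:78370885-78373466, Reg3a at chr6:78380709-78383839 and Reg3g at chr6:78466269-78468874 (GRCm38). Reg3d, Reg2 and Reg1, lectin genes of the same family, lie between them. The 250 bases before the starts of Reg3b and Reg3g are shown because they are the promoters of the 2 antibacterial lectins and because peaks lay over the Reg3b one in 4 H3K27ac lists. They are RefSeq sequences of GRCm38.p6, Reg3b from chr6:78370635-78370884 on the plus strand and Reg3g from chr6:78468875-78469124 on the minus strand, and capitals mark motif matches.
Reg3b: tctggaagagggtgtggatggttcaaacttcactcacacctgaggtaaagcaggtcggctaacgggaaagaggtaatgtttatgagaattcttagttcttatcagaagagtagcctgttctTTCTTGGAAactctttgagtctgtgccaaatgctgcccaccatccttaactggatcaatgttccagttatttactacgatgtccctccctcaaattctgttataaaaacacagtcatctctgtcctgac
Reg3g: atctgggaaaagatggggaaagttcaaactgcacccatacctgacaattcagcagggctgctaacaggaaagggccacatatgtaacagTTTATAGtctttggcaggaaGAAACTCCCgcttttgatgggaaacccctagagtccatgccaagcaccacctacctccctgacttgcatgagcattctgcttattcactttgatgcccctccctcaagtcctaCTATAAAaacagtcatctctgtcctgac

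The Reg3b capitals match the STAT motif TTCNNNGAA, starting 129 bases before the start, which 7.02% of all 32851 RefSeq promoter windows of that length also hold on either strand. In Reg3g the capitals match, in order, the CDX motif TTTATNG, the NF-kB motif GGGNNTTTC read on the other strand, and TTTATNG read on the other strand. The last of these is CTATAAA, which starts 28 bases before the start and overlaps the letters of a TATA box. All windows hold a CDX motif (TTTATNG or TTTACNG) in 16.7% and an NF-kB motif (GGGNNTTTC or GGAANTTCC) in 4.42%. The promoters of Reg3b and Reg3g were identical at 173 of 247 aligned bases (70%). A match describes letters and does not show binding.

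At Reg3b the H3K27ac peaks at the start, in chr6:78370378-78371504, came from 4 lists: Fast -Tetra 1 and 2, Fed +Tetra 2 and Fast +Tetra 2. H3K9ac within 1 kb of that end, in chr6:78370606-78371602, came from both Fast -Tetra lists and from no other list. In list 2 the peak was 997 bp wide and lay over the start, and in list 1 it was 200 bp wide, the narrowest width, and lay inside the gene. Reg3b was thus marked in both Fast -Tetra lists and neither Fed -Tetra list for H3K27ac, as were 1.29% of all genes, and for H3K9ac, as were 1.23%. Among fasted mice its H3K9ac end was marked in both -Tetra lists and neither +Tetra list, as in 1.36% of all genes. With 2 lists against 2 the smallest exact permutation p is 0.333, so these are descriptions.

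Reg3a is another secreted lectin of the family. Among fed mice its H3K27ac end was marked in both Fed +Tetra lists and neither Fed -Tetra list, as in 0.37% of all genes. The Reg3b end went the same way, marked by H3K27ac in 1 Fed +Tetra and 0 Fed -Tetra lists. Covered H3K27ac length, +Tetra minus -Tetra, differed in fed mice by 3244.5 bp at Reg3a and 2864 bp at Reg3b. In fasted mice it differed by -2035.5 and -2193.5 bp. The Fed -Tetra list 2 had its peak inside the Reg3a body, in the same merged region, chr6:78380536-78382511, that 5 of 8 lists shared. H3K9ac marked Reg3a in the Fed +Tetra list 2 and in no other list.

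The most widely shared H3K27ac region of the cluster lay away from any gene end, at chr6:78361449-78362786, 8099 bp below Reg3b, with peaks in 7 of 8 lists and none in the Fed -Tetra list 1. None of the 21 H3K27ac or 20 H3K9ac regions of the cluster was in all 8 lists of its mark.

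Reg3g had more H3K27ac around it in fasted mice. Its covered H3K27ac length was 590 and 1180 bp in the Fed -Tetra lists, 1845 and 5649 bp in the Fast -Tetra lists, 494 and 1312 bp in the Fed +Tetra lists and 1780 and 2115 bp in the Fast +Tetra lists. All 4 Fast lists lay above all 4 Fed lists. The means were 2847 bp in Fast and 894 bp in Fed lists, a difference of 1953 bp beside an SD between the lists of a group of 1396 bp (exact permutation p = 0.0556, two-sided, adjusted p = 0.633). The difference was 2862 bp without and 1044.5 bp with tetracycline. Most of this length lay in the flanks: the gene end at the start was marked in Fed -Tetra 2, Fast -Tetra 2 and Fast +Tetra 2 only. With a flank of 25 kb the difference was 772 bp (exact permutation p = 0.111), with equal numbers of top-scoring peaks 850 bp (exact permutation p = 0.278), and in the upper 0.5 of each list by score 492 bp (exact permutation p = 0.333). Over lists 1 alone it was 1270 bp and over lists 2 alone 2640 bp. Of 12 Paneth cell genes 11 were found, and a mean of 2.25 of them were marked in Fed and 3.25 in Fast H3K27ac lists. By tetracycline their H3K27ac means were 3.25 in -Tetra and 2.25 in +Tetra lists. Their H3K9ac mean was 2.75 in Fed, Fast, -Tetra and +Tetra lists alike. By covered length, the measure used for Reg3g, 4 of the 11 were at the smallest p with more H3K27ac in Fast lists. The share of all genes was 8.51%. For H3K9ac it was 1 of the 11, beside 5.38% of all genes, and in both marks 0 had more in Fed lists. The part of Paneth cells in the Reg3g difference was not tested.

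In Reg3g as in Reg3a, the H3K27ac length was larger in list 2 than in list 1 of every group. Reg3a H3K27ac covered 0 and 1086 bp in Fed -Tetra, 1634 and 8957 bp in Fast -Tetra, 1240 and 6335 bp in Fed +Tetra and 2108 and 4412 bp in Fast +Tetra lists. The 2 tetracycline states overlapped (exact permutation p = 0.722, two-sided). Reg3b, whose window shares most of these peaks, ranged from 0 to 8070 bp. H3K9ac lengths were small, 0 to 1581 bp for Reg3a and for Reg3b and 0 to 2269 bp for Reg3g. The 3 genes are related in sequence, and how reads that match several copies were placed is not given in the sources used here.

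**Figure D3:**
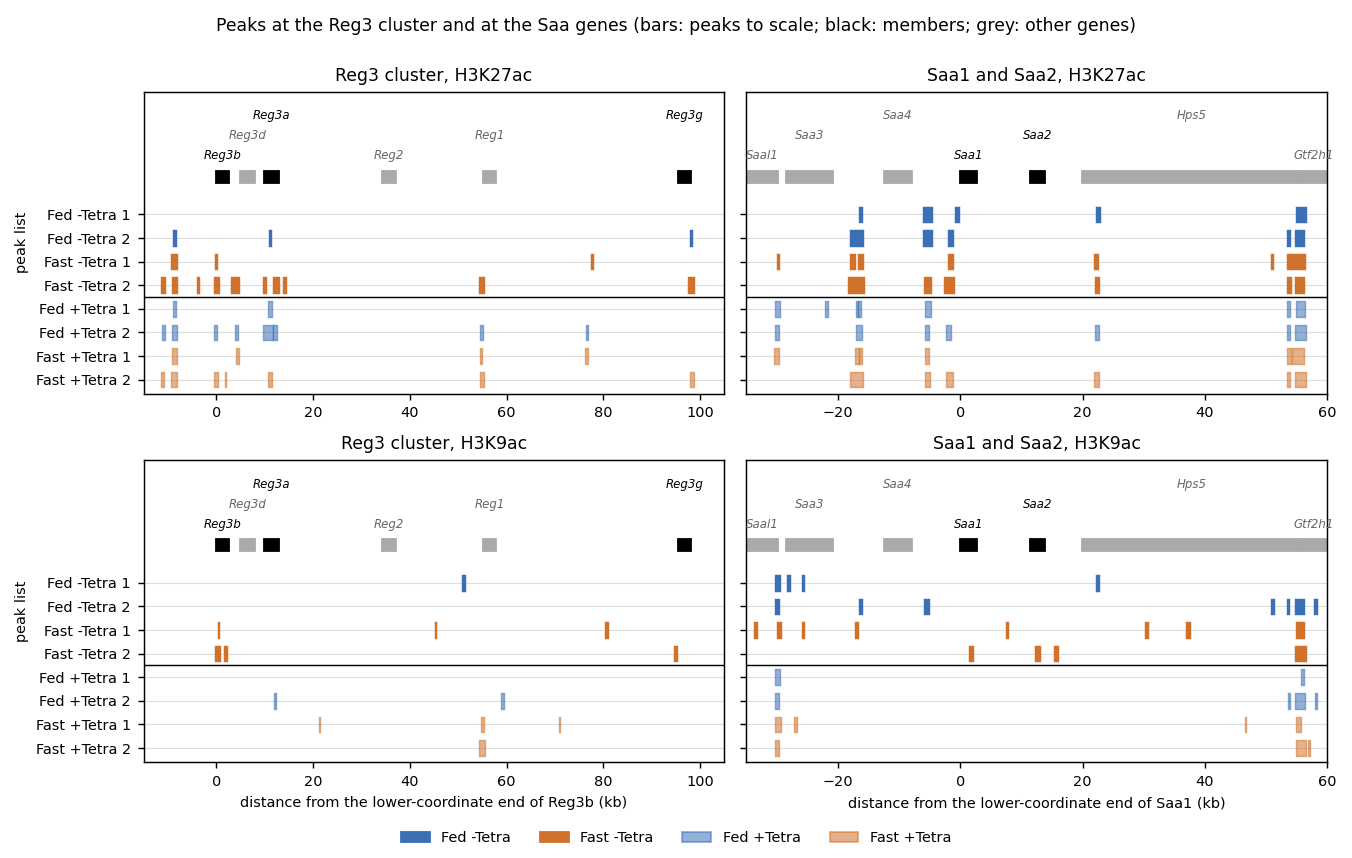
Peaks of each list (rows) across the Reg3 cluster (left) and around Saa1 and Saa2 (right), H3K27ac above and H3K9ac below; the x axis is the distance in kb from the lower-coordinate end of Reg3b or Saa1, bars are peaks to scale, black boxes are the described genes and grey boxes their neighbours. Peaks at the Reg3b start, or just inside the gene, appear in 4 H3K27ac rows and 2 H3K9ac rows, and no H3K27ac bar lies over Saa2.

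Retnlb, a goblet cell protein (RELM-beta) with antibacterial activity, lies at chr16:48816856-48818892. It had no peak of either mark at its ends or in its body in any list. Its flanks held H3K27ac peaks in 4 of 8 lists, the nearest of them 4425 bp away in the Fast +Tetra list 1. The covered H3K27ac length was 0, 432, 306 and 499 bp in the -Tetra lists and 0, 0, 917 and 0 bp in the +Tetra lists. H3K9ac appeared in both Fast +Tetra lists only, as peaks of 200 to 202 bp, at or close to the narrowest width of 200 bp. No tetracycline or feeding difference at Retnlb can be read from so few peaks.

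Saa1 (chr7:46740497-46743181) and Saa2 (chr7:46751833-46754313) encode serum amyloid A, an acute-phase protein that ileal epithelium makes when certain bacteria attach to it. Over the 250 bases before their starts the promoters were identical at 238 of 249 aligned bases (95.6%), so reads from the 2 genes may not be separable. The Saa2 stretch, RefSeq GRCm38.p6 chr7:46751583-46751832 on the plus strand, is shown as the example of this pair.
Saa2: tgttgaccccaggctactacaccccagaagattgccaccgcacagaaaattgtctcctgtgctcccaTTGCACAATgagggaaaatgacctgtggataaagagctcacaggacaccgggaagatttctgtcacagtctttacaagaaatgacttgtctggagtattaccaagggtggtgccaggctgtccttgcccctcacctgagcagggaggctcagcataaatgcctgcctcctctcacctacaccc

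The capitals match the C/EBP motif TTGCNNAAT, 183 bases before the Saa2 start. The same letters stand 182 bases before the Saa1 start, and 3.8% of all promoter windows hold that motif or TTGCNNCAA on either strand. No peak of either mark lay over these promoter stretches in any list. Saa2 had no H3K27ac peak at an end or in its body in any list, with the nearest peak 8044 to 16476 bp away. Saa1 had 1 H3K27ac end peak, in the Fed -Tetra list 1, and otherwise the nearest peak lay 1078 to 5140 bp away.

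The H3K27ac of this locus lay both between the Saa genes and at the ends of neighbouring genes. The region chr7:46794762-46797051, at the neighbouring ends of Hps5 and Gtf2h1, was in all 8 lists, at a median score percentile of 86.3. The region chr7:46722144-46724743, between Saa3 and Saa4 and 15754 bp from Saa1, was also in all 8 lists, at a median percentile of 61.6. The region chr7:46734427-46735797, between Saa4 and Saa1, was in all lists but the Fast -Tetra list 1. The region chr7:46737882-46739419, 1078 bp from Saa1, was in 5 lists, 3 -Tetra and 2 +Tetra. Covered H3K27ac length near Saa1 ranged from 3209 to 5888 bp in -Tetra and from 2657 to 4973 bp in +Tetra lists, which overlapped.

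H3K9ac near Saa1 was lower under tetracycline. It covered 2166 and 2358 bp in the Fed -Tetra lists, 4835 and 2139 bp in the Fast -Tetra lists, 831 and 973 bp in the Fed +Tetra lists and 2091 and 697 bp in the Fast +Tetra lists. All 4 -Tetra lists lay above all 4 +Tetra lists, but the lowest -Tetra value exceeded the highest +Tetra value only by the gap between 2139 and 2091 bp. The means were 2874.5 bp without and 1148 bp with tetracycline, a difference of -1726.5 bp beside an SD between lists of 1076 bp (exact permutation p = 0.0556, two-sided, adjusted p = 1). The difference was -1360 bp in fed and -2093 bp in fasted mice. In the upper 0.5 of each list by score it was -164 bp (exact permutation p = 0.833), with equal numbers of top-scoring peaks -687 bp (exact permutation p = 0.111), and with a flank of 100 kb it was -1120 bp (exact permutation p = 0.5).

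The peaks behind it were scattered. Of the H3K9ac regions seen in -Tetra lists alone, 1 was in 2 lists, chr7:46714520-46714907 in the body of Saa3, and the others were each in 1 list. Peaks within Saa1 and within Saa2 came from the Fast -Tetra list 2 alone. A pair of H3K9ac regions were each in 7 of 8 lists. One, chr7:46795215-46797011, lies at the Hps5 and Gtf2h1 ends, 40902 bp from Saa2. The other, chr7:46710118-46711148, lies at the neighbouring ends of Saal1 and Saa3, 29349 bp from Saa1. Saa2, whose window overlaps that of Saa1, covered 2166 to 4938 bp of H3K9ac in -Tetra and 1315 to 3016 bp in +Tetra lists (two-sided exact permutation p = 0.111, adjusted p = 1).

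Duox2 (chr2:122279246-122298740) is the dual oxidase that releases hydrogen peroxide at the epithelial surface, and Duoxa2 (chr2:122298900-122302885) is the maturation factor that carries it there. Their neighbouring ends lie close together, so a peak there marks both genes. The 159 bases between the 2 genes are shown because this is where the peaks of both marks meet: RefSeq GRCm38.p6, chr2:122298741-122298899, on the plus strand toward Duoxa2.
Duoxa2: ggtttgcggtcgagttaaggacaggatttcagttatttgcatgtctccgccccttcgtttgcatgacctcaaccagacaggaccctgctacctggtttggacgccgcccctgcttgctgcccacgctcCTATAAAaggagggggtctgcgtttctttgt

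The capitals, CTATAAA, match the CDX motif TTTATNG on the other strand and start 31 bases before the Duoxa2 start, again overlapping the letters of a TATA box. Over the 250 bases before the Duoxa2 start, H3K27ac peaks lay in 2 lists, both Fed -Tetra, and H3K9ac peaks in 4 lists, 3 -Tetra and 1 +Tetra.

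H3K27ac between Duox2 and Duoxa2 was seen only without tetracycline and only in fed mice. The region chr2:122297710-122299384, 1675 bp wide, held peaks of both Fed -Tetra lists and of none of the other 6. Duox2 and Duoxa2 were therefore marked in both Fed -Tetra lists, and neither was marked in a Fed +Tetra list, a pattern of 0.74% of all genes. Duox2 was also among the 0.503% of genes with H3K27ac at an end in both Fed -Tetra and neither Fast -Tetra list. These peaks ranked at percentiles 35 and 47.9 by score within their lists. They were kept when every H3K27ac list was cut to the same number of top-scoring peaks, and none was left in the upper 0.5 of each list. The far end of Duoxa2 was marked in 4 lists. In Fed -Tetra 1, Fast -Tetra 2 and Fast +Tetra 1 the peak lay in chr2:122302545-122303434, next to Duoxa1, and in Fed -Tetra 2 it lay inside Duoxa2, at chr2:122300943-122302062.

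H3K9ac between the 2 genes also came mostly from -Tetra lists. The region chr2:122297172-122299397 held peaks of Fed -Tetra 2, both Fast -Tetra lists and Fast +Tetra 2. Duox2 was marked in 3 of 4 -Tetra and 1 of 4 +Tetra lists, and Duoxa2 in 3 and 2. With peaks of at least 500 bp only, both genes were marked in 3 -Tetra and 0 +Tetra lists. When every H3K9ac list was cut to the same number of top-scoring peaks, 1 -Tetra and 0 +Tetra lists remained. The Fed -Tetra list 1, the smallest H3K9ac list, had no peak within 50 kb of either gene. Duoxa2 was marked in both Fast +Tetra lists and neither Fed +Tetra list, as were 1.93% of all genes.

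The covered H3K27ac length around Duoxa2 was 5778 and 7227 bp in Fed -Tetra, 2649 and 6500 bp in Fast -Tetra, 1755 and 3914 bp in Fed +Tetra and 3191 and 2668 bp in Fast +Tetra lists. In fed mice both -Tetra lists lay above both +Tetra lists, and in fasted mice the Fast -Tetra list 1 lay below both. The difference was -2656.5 bp beside an SD between lists of 1653 bp (exact permutation p = 0.167, two-sided, adjusted p = 1). Duox2 differed by -2280.5 bp beside an SD of 2951 bp (exact permutation p = 0.389). Around Duox2 the 4 H3K27ac regions present in all 8 lists lay at, within or just beyond Sord, the sorbitol dehydrogenase gene, 11658 to 42496 bp from Duox2. H3K9ac lengths of Duoxa2 ranged from 0 to 4509 bp in -Tetra and from 608 to 4844 bp in +Tetra lists (exact permutation p = 1, two-sided).

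Nos2 (chr11:78920787-78960226) encodes inducible nitric oxide synthase. Its lower-coordinate end carried H3K27ac, in chr11:78920320-78921344, in all 4 -Tetra lists and in 2 of 4 +Tetra lists, Fed +Tetra 2 and Fast +Tetra 2. A second region just inside the gene, chr11:78922315-78923657, was in all 4 -Tetra lists and in the Fed +Tetra list 2. Counting either end, Nos2 was marked in 4 -Tetra and 3 +Tetra lists. H3K9ac at the lower-coordinate end, in chr11:78920373-78921315, came from both Fed -Tetra lists, at score percentiles of 15.5 and 86.9. The Fast +Tetra list 1 also marked Nos2 by H3K9ac, with peaks within 1 kb of each end, the lower of them chr11:78919450-78919840, outside the gene. Nos2 was marked by H3K9ac in both Fed -Tetra and neither Fed +Tetra list, as were 0.818% of all genes, and in neither Fast -Tetra list, as in 1.49%.

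The covered H3K27ac length at Nos2 was 14400 and 17374 bp in Fed -Tetra, 16434 and 21827 bp in Fast -Tetra, 11088 and 18001 bp in Fed +Tetra and 15404 and 20872 bp in Fast +Tetra lists. The states overlapped (difference -1167.5 bp, SD 3802 bp, exact permutation p = 0.611, two-sided). Most of this length belonged to regions that did not differ in presence: 4 of the 21 H3K27ac regions were in all 8 lists, among them chr11:78979964-78985623 at an end of Lgals9, the gene of galectin-9, and chr11:79001810-79007164, 41584 bp from Nos2. The Lgals9 end was also the 1 H3K9ac region of the locus in all 8 lists.

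**Figure D4:**
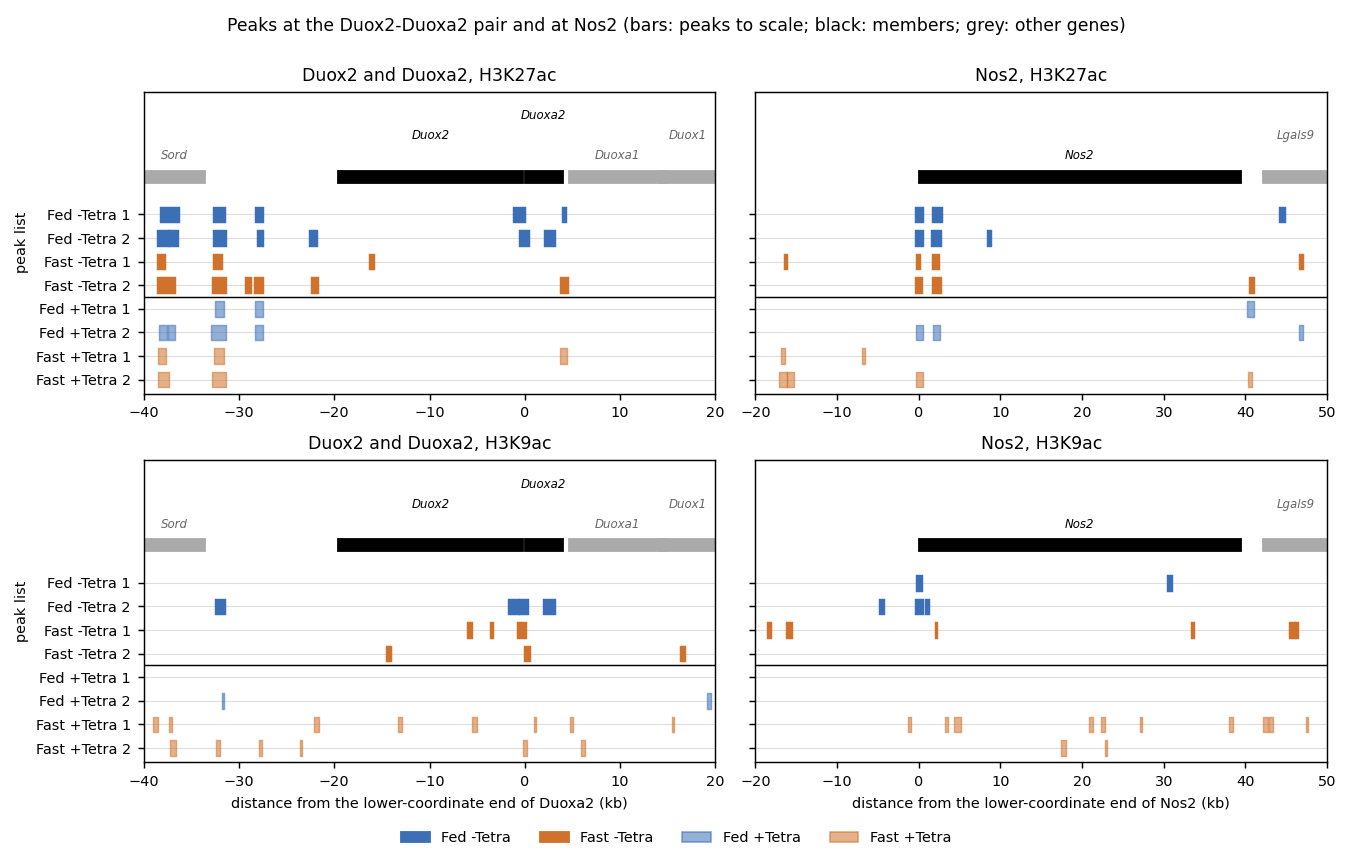
Peaks of each list (rows) around Duox2 and Duoxa2 (left) and Nos2 (right), H3K27ac above and H3K9ac below; the x axis is the distance in kb from the lower-coordinate end of Duoxa2 or Nos2, bars are peaks to scale, black boxes are the described genes and grey boxes their neighbours. At 0 kb the Duox panel for H3K27ac has bars in the 2 Fed -Tetra rows only, and the Nos2 panel for H3K27ac has bars in 4 -Tetra and 2 +Tetra rows.

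Pigr (chr1:130826684-130852249) encodes the polymeric immunoglobulin receptor, which carries IgA across the epithelium into the lumen. It was the 1 gene of the 10 marked in all 16 lists. Its 250 bases before the start, RefSeq GRCm38.p6 chr1:130826434-130826683 on the plus strand, lay under a peak in all 8 H3K27ac and all 8 H3K9ac lists and are shown for that reason.
Pigr: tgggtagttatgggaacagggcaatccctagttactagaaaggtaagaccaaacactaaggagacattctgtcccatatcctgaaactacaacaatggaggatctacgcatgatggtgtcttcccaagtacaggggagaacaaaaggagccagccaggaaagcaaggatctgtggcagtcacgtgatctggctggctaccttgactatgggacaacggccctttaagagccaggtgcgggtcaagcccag

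No motif of the 7 families searched was found in this window, which says only that these letters are not in it. The H3K27ac peaks at the Pigr start merged into chr1:130825794-130833398 and the H3K9ac peaks into chr1:130826057-130833260, so the mark reached into the gene body. The best H3K9ac peak in that region ranked at a median score percentile of 97.8 within its list, with a range of 80.5 to 99.8. For H3K27ac the median was 86.3. The H3K9ac end peak was 950 and 5425 bp wide in Fed -Tetra, 2119 and 2469 bp in Fast -Tetra, 755 and 2313 bp in Fed +Tetra and 785 and 2314 bp in Fast +Tetra lists. List 2 was wider than list 1 in every group.

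Pigr also had 2 H3K27ac regions below the gene in all 8 lists, chr1:130819398-130823047, 3637 bp away, and chr1:130796509-130799344, 27340 bp away. Both lie in the body of Fcamr, a neighbouring gene for another immunoglobulin receptor. Another region, chr1:130801079-130802589, was in 3 of 4 -Tetra lists and 0 of 4 +Tetra lists. The covered H3K27ac length at Pigr was 8645 and 12879 bp in Fed -Tetra, 14088 and 17512 bp in Fast -Tetra, 6443 and 13166 bp in Fed +Tetra and 11571 and 12899 bp in Fast +Tetra lists. Both Fast -Tetra lists lay above both Fed -Tetra lists, whereas with tetracycline the 2 Fast lists lay between the 2 Fed lists. Fast exceeded Fed by 3734 bp (SD 3095 bp, exact permutation p = 0.222, two-sided, adjusted p = 0.866), and +Tetra differed from -Tetra by -2261 bp (exact permutation p = 0.278). H3K9ac lengths ranged from 3358 to 13487 bp, with no difference that exceeded the spread in either comparison.

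**Figure D5:**
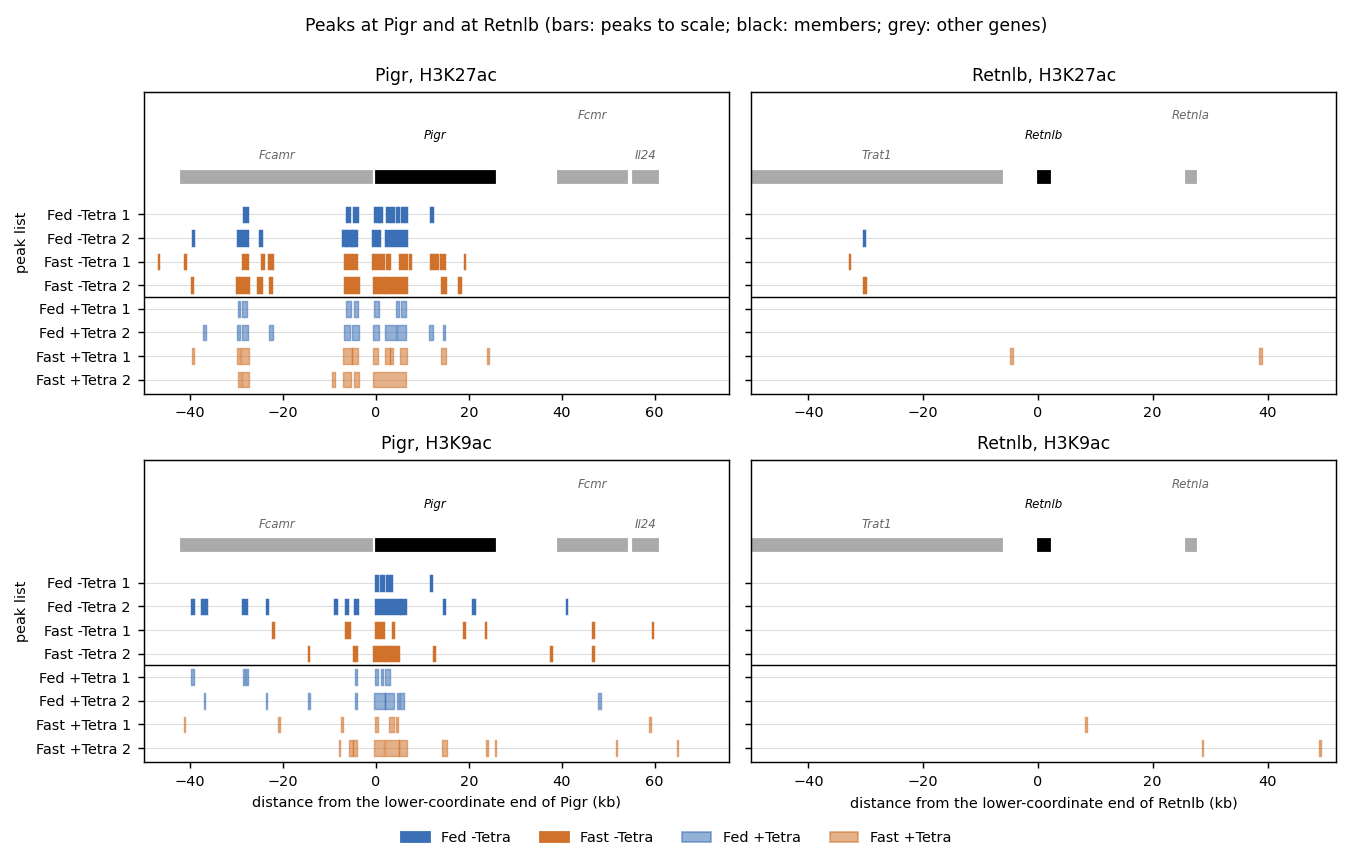
Peaks of each list (rows) around Pigr (left) and Retnlb (right), H3K27ac above and H3K9ac below; the x axis is the distance in kb from the lower-coordinate end of the gene, bars are peaks to scale, black boxes are the described genes and grey boxes their neighbours. All 8 rows of both marks have bars at the Pigr start, and no bar touches Retnlb.

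Feeding was compared second, with list labels permuted within each tetracycline state. Of the 10 genes a mean of 4.25 were marked by H3K27ac in Fed and 4 in Fast lists. H3K9ac marked a mean of 2.25 in Fed and 4.25 in Fast lists. The H3K9ac difference of 2 genes became -0.75 when every list was cut to the same number of top-scoring peaks. Covered H3K27ac length was higher in Fast lists for 8 of the 10 genes, all but Duox2 and Duoxa2, with a median difference of 1542.5 bp, beside 73.6% of all genes and a median of 431.25 bp. Covered H3K9ac length was higher in Fast lists for 9 of the 10, all but Pigr, beside 74% of all genes.

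Separation by feeding with more H3K27ac in Fast lists was found in 8.51% of all genes and in 1 of the 10, Reg3g, a share near the background. More H3K27ac in Fed lists separated 0.265% of genes and 0 of the 10. For H3K9ac the shares were 5.38% for Fast and 0.43% for Fed, with 0 of the 10 in either. The smallest adjusted p over all genes was 0.633 for H3K27ac and 0.875 for H3K9ac.

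The remaining patterns of 2 lists against 2 at gene ends held 0 of the 10 genes. For H3K27ac they were both +Tetra lists alone in fasted mice (0.48% of all genes), both -Tetra lists alone in fasted mice (1.12%), and with tetracycline both Fast lists alone (0.768%) and both Fed lists alone (0.457%). For H3K9ac they were both +Tetra lists alone in fed mice (0.731%) and in fasted mice (2.15%), and both Fed lists alone with tetracycline (1.23%).

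By presence of merged regions, the loci of the 10 genes held 89 of the 112301 H3K27ac and 157 of the 295928 H3K9ac regions. Of the 89, 14.6% were in all 8 lists and 43.8% in 1 list, against 14.6% and 53.1% of all H3K27ac regions. Of the 157, 1.27% were in all 8 lists and 78.3% in 1 list, against 1.52% and 84.4%. H3K27ac regions that overlapped an H3K9ac region numbered 8 of 21 in the Reg3 cluster, 0 of 4 at Retnlb, 7 of 11 at the Saa genes, 10 of 15 at the Duox genes, 15 of 21 at Nos2 and 13 of 17 at Pigr.

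No region of these loci separated the lists by tetracycline. Regions in all 4 lists of 1 tetracycline state and none of the other made up 0.024% (+Tetra) and 0.0882% (-Tetra) of all H3K27ac regions and 0.0189% and 0.00879% of all H3K9ac regions, and 0 lay at the 10 genes. By feeding, 0.4% of H3K27ac regions had a peak in each of the 4 Fast lists but in no Fed list, and 1 of them lay in these loci: chr11:78985904-78987739, 1836 bp wide, 980 bp beyond the end of Lgals9 and 25678 bp from Nos2, at score percentiles of 58.1 to 72.3. The opposite pattern held 0.0837% of H3K27ac regions. For H3K9ac the shares were 0.0189% (Fast) and 0.0145% (Fed). None of these last 3 sets had a region at the 10 genes.

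Most of the signalling genes above this group were marked in most lists. Exceptions included Osmr (0 of 8 H3K27ac and 1 of 8 H3K9ac lists), Il6ra (3 and 2) and Nfkb2 (1 and 0). Per list, 42.9% to 50.7% of all genes were marked by H3K27ac and 41.1% to 53.2% by H3K9ac. Of 16 genes of IL-22, IL-17 and STAT3 signalling, H3K27ac marked a mean of 14 without and 13.5 with tetracycline, and H3K9ac 12.75 and 13.25. Of 16 genes of Toll-like receptor, MyD88 and NF-kB signalling, H3K27ac marked a mean of 14 and 14.5, and H3K9ac 13.75 and 14. By covered length 2 of the 16 STAT3-pathway genes were separated, both with less H3K27ac in +Tetra lists, beside 2.92% of all genes, and 0 of the 16 MyD88-pathway genes were. In H3K9ac 0 genes of either list were separated by tetracycline.

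Jak1, the kinase that IL-22 receptors share with other cytokine receptors, covered 7197, 9025, 11073 and 9414 bp of H3K27ac in -Tetra lists and 3117, 4924, 7614 and 5345 bp in +Tetra lists. Within each feeding state both -Tetra lists lay above both +Tetra lists, a difference of -3927 bp (exact permutation p = 0.0556, two-sided, adjusted p = 1).

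Of 32 other inducible epithelial defence genes, a mean of 13.5 were marked by H3K27ac in each tetracycline state, and H3K9ac marked 10 without and 11.5 with tetracycline. Sprr2a1, a small proline-rich protein gene, was the 1 gene of these 32 separated by tetracycline in H3K27ac, a share near the 2.92% of all genes with more in -Tetra lists. It covered 10491 and 13592 bp in Fed -Tetra, 7505 and 9023 bp in Fast -Tetra, 5916 and 9385 bp in Fed +Tetra and 4552 and 5229 bp in Fast +Tetra lists. Its difference, +Tetra minus -Tetra, was -3882 bp (two-sided exact permutation p = 0.0556, adjusted p = 1). Saa4 was the 1 of 32 separated in H3K9ac, beside 0.32% of all genes, by -1853 bp and shares most of its window with Saa1.

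Some immune cell genes had peaks at a gene end, which does not by itself show that immune cells were present. Of 16, H3K27ac marked 4 to 6 in -Tetra and 2 to 7 in +Tetra lists, and H3K9ac 2 to 6 and 1 to 5. Of all genes, H3K27ac marked 42.9% to 50.7% per list and H3K9ac 41.1% to 53.2%. Cd79a was marked by H3K27ac in all 8 lists, and 7 of the 16 in none, among them Cd4, Csf1r, Adgre1, Il22, Il17a and Ifng. Cd79a was the 1 of these 16 separated by tetracycline, beside 2.92% of all genes with more H3K27ac in -Tetra lists, with an H3K27ac difference of -1694 bp, +Tetra minus -Tetra (exact permutation p = 0.0556, two-sided, adjusted p = 1). By feeding, the H3K27ac means were 4 in Fed and 6.25 in Fast lists, and the H3K9ac means 2.25 and 4. The part of such cells in the values of the 10 genes was not tested.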

How the data were processed

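The 16 peak lists (8 samples, 2 marks) were deposited by the authors, with a score per peak whose unit is not stated. The score is the authors' own value. It was used to rank peaks within a list, as percentiles, and its minimum was 50. Per the submitters' processing notes FastQC, Bowtie and SAMtools were used on mm10, the same build as GRCm38. Per the labels' protocols crypts were shaken off in HBSS with EDTA, made into single cells with trypsin, and libraries were prepared with an Epicypher kit, with an IgG antibody also named. The peak caller's settings and the use of IgG are not given in the sources used here. The list names describe the data as downsampled and read totals are not given, so depth is unknown and no counting interval is given. Lists were called separately in each library.

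Peaks on chromosomes 1 to 19, X and Y were used. Genes were the 21883 protein-coding genes of RefSeq GRCm38.p6, in a table without strand, so either end counted as a gene end (1 kb). Loci were gene bodies with 50 kb flanks. Regions were made by joining peaks of any of a mark's 8 lists that overlapped by at least 1 bp. Benjamini-Hochberg adjustment of the exact permutation p-values covered all genes of a mark and comparison. The 10 genes and all gene lists were chosen with earlier results of these data known. All 10 genes are named. Of other lists, up to 4 genes at the smallest p for tetracycline are named, and of regions up to 3 per direction. Values of some listed genes are not reported here. Promoter sequences were those under a peak in at least 4 lists of a mark (Reg3b, Duoxa2, Pigr), with Reg3g and Saa2 added after values were seen, and printed only outside annotated genes. RefSeq promoter sequences were found for 8 of the 10 genes, and Retnlb and Nos2 had none. Motifs were searched on both strands: TTCNNNGAA for STAT factors, GGGNNTTTC or GGAANTTCC for NF-kB, TTGCNNCAA or TTGCNNAAT for C/EBP and CAAAGTCCA for HNF4A. Shorter ones were TGANTCA for AP-1, the CDX pair named in the results and AGATAA, which GATA factors bind.

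Alternatives were flanks of 25 and 100 kb, a gene-end window of 2.5 kb, the upper 0.5 of each list by score, equal numbers of top-scoring peaks, peaks of at least 500 bp, covered length as a share of the list, same-number lists as pairs, and leaving out the lists of 1 number. The separation call was tested on simulated covered lengths with a large planted difference. Their spread between lists was smaller, relative to the mean, than at loci such as Reg3a. That test therefore does not show how often the call finds a difference in lists like these. Covered length was recounted another way for a random sample of genes in the Fed -Tetra list 1 of each mark. Gene-end marking and merged regions were not tested in this way. The tools were Biopython 1.88, matplotlib 3.10.9, scipy 1.17.1, pandas 2.3.3, numpy 2.4.6 and Python 3.11.15.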

Additional observations from a re-analysis of the deposited data

How the results depend on the processing

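The numbers of lists came from file names and not from the labels. Log2 ratios of list 1 to list 2 correlated between groups by 0.0459 to 0.245 over 14889 genes for H3K27ac and by -0.0655 to 0.231 over 14506 genes for H3K9ac. Treating same-number lists as pairs (16 arrangements) therefore rests on a number alone. With this replicate block the genes separated were 2 in place of 1 for more H3K27ac in Fast, 1 in place of 0 for more H3K27ac in -Tetra, 1 in place of 0 for more H3K9ac in Fast and 2 in place of 1 for more H3K9ac in -Tetra lists.

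Of the 40 differences in covered length (10 genes, 2 marks, 2 comparisons), 33 kept their sign as a share of the list, 34 with 100 kb flanks, 38 with 25 kb flanks, 35 with peaks of at least 500 bp, 30 with equal numbers of top-scoring peaks, 32 in the upper 0.5 by score, and 33 and 35 without lists 1 and 2. The count separated with more H3K27ac in Fast lists, 1, was 0 with flanks of 25 or 100 kb, with peaks of at least 500 bp, with equal numbers of peaks and in the upper 0.5 by score. The count with more H3K27ac in -Tetra, 0, was 1 in the upper 0.5 by score. The count with more H3K9ac in Fast, 0, was 3 with 100 kb flanks and 1 in the upper 0.5. The count with more H3K9ac in -Tetra, 1, was 2 as a share of the list and with 25 kb flanks, and 0 with 100 kb flanks, equal numbers and the upper 0.5. The H3K9ac difference in genes marked, Fast minus Fed, 2, was -0.75 with equal numbers and -0.25 in the upper 0.5. The H3K27ac region near Lgals9 fell outside 25 kb flanks (0 regions).

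Leaving out the lists of 1 number leaves 1 list per group, so separation is then easily reached. The genes separated were 4 to 6 (more H3K27ac in Fast), 0 to 2 (Fed), 0 to 2 (+Tetra) and 4 to 5 (-Tetra), and for H3K9ac 2 to 6 (Fast), 0 to 3 (Fed), 0 to 2 (+Tetra) and 2 to 4 (-Tetra). H3K27ac regions in all lists of 1 state and none of the other numbered 2 to 4 (Fast), 0 to 2 (Fed), 0 to 2 (+Tetra) and 5 to 5 (-Tetra), and H3K9ac regions 0 to 2 (Fast), 0 to 5 (Fed), 1 to 1 (+Tetra) and 0 to 1 (-Tetra). Apart from fewer lists, the cause of these shifts was not tested. Depth is unknown and sets a limit that these lists do not show.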

Other observations

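Of the 32 other inducible defence genes, 3 (Reg4, S100a8 and Fut2) were separated by feeding with more H3K27ac in Fast lists, a share near the 8.51% of all genes. The largest of these 3 differences was at Reg4, a lectin gene of the Reg family that marks secretory cells. Its H3K27ac covered 892 and 3776 bp in Fed -Tetra, 15690 and 20628 bp in Fast -Tetra, 970 and 3929 bp in Fed +Tetra and 13252 and 12160 bp in Fast +Tetra lists. The means were 15432 bp in Fast and 2392 bp in Fed lists, at the smallest possible p (exact permutation p = 0.0556, two-sided, adjusted p = 0.633). Reg4 was also 1 of 3 of these genes (with Cxcl5 and Gbp2) separated with more H3K9ac in Fast lists, beside 5.38% of all genes, with means of 5123 and 1059 bp (exact permutation p = 0.0556, adjusted p = 0.875). The gene ends of Reg4 were marked by H3K27ac in 1 of 8 lists and by H3K9ac in 0. Sprr2a1 was the 1 of 32 separated the other way, beside 0.265% of all genes, with 6577 bp of H3K27ac in Fast and 9846 bp in Fed lists.

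Of the 11 Paneth cell genes found, 4 had more H3K27ac in Fast lists at the smallest p, beside 8.51% of all genes, and 1 of 11 (Ang4) more H3K9ac, beside 5.38%. The separation was not confined to crypt genes. Of the 12 genes of other tissues, 2 (Myh6 and Pecam1) were separated with more H3K27ac in Fast lists. With more H3K9ac in Fast lists 2 of the 12 were separated, Myh6 and Neurod6. Mmp7, the protease that activates alpha-defensins, covered 417 and 0 bp in Fed -Tetra, 5985 and 4882 bp in Fast -Tetra, 0 and 0 bp in Fed +Tetra and 3304 and 4326 bp in Fast +Tetra lists. Sox9, a transcription factor of crypt base cells, covered 6146.5 bp in Fast and 1958 bp in Fed lists, and Spink4 15055 and 10798 bp. Defa24, an alpha-defensin with near-identical copies, covered 1313 to 1924 bp in Fast lists and was at 0 in all Fed lists. The genes named in this paragraph were picked out after their values were seen. Adjusted p was 0.633 for H3K27ac and 0.875 for H3K9ac in the exact permutation tests.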
